A study of Mus musculus with 6 samples.

Results

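The genes described here are 9 genes of MHC class I presentation, namely *B2m*, *H2-K1*, *H2-D1*, *Tap1*, *Tap2*, *Tapbp*, *Erap1*, *Nlrc5* and *Cd274*, taken by gene symbol from a deposited table of 18169 genes. They were measured by RNA sequencing in Hepa 1-6 cells, a mouse hepatoma line whose labelled cell type is hepatocyte. Cells received Shh, the ligand of the hedgehog pathway, in 3 libraries (Shh 1, 2 and 3) or vehicle in 3 libraries (vehicle 1, 2 and 3), and the comparison asks what Shh did to these genes. No gene was deleted or overexpressed in either group. Neither the labels nor the methods tie a dose or an exposure time to the sequenced cells. Separate cultures are not stated for the libraries, and p-values then reflect only how much these 6 libraries vary, which may be technical. A single line was used, which limits the comparison to it.

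MHC class I molecules display peptides from inside the cell to CD8 T cells. A heavy chain (H2-K1 or H2-D1 in the mouse) pairs with the invariant light chain β2-microglobulin, encoded by *B2m*. Peptides cut by the proteasome enter the endoplasmic reticulum through the transporter formed by TAP1 and TAP2, are trimmed there by the aminopeptidase ERAP1 and are loaded with the help of tapasin, encoded by *Tapbp*. NLRC5 is the transactivator of the class I genes and acts at promoters that carry the SXY module. *Cd274* encodes PD-L1, a ligand of the inhibitory T cell receptor PD-1. In hepatocytes class I expression is usually low, and interferon-γ raises it together with *Cd274*.

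The library totals lay between 20253781 and 20335463 estimated counts, and 12286 genes, all 9 described here among them, passed the expression filter. The hepatoma markers *Alb*, *Afp* and *Krt18* were high, with mean FPKM of 494, 190 and 1622 with Shh and 494, 192 and 1657 with vehicle. Of the 10 hepatocyte markers, *Ttr* had at most 12 counts and *Serpina1a* at most 3.06 counts in any library. *Apoa1* and *Apob* were low too, at ranks 8881 and 9194 by FPKM. Their mean FPKM was 2.99 and 2.73 with Shh and 3.41 and 2.55 with vehicle. The summed level of 7 leukocyte markers was 14.6 to 22.2 CPM with Shh and 17.5 to 17.9 CPM with vehicle. Most of it was *Cd68*, with 11.7 to 15.3 CPM with Shh and 14.2 to 14.4 CPM with vehicle. For 5 stellate and fibroblast markers the sum was 934 to 991 CPM with Shh and 931 to 973 CPM with vehicle. Nearly all of it was *Dcn*, with a mean of 943 CPM with Shh and 932 CPM with vehicle (519 and 503 FPKM). The summed level of 5 endothelial markers was 1.28 to 2.92 CPM with Shh and 1.34 to 2.44 CPM with vehicle. Shh 2 stood farthest from the vehicle libraries over all genes (chi-square per degree of freedom 9.23 to 11.5), while the vehicle libraries differed from each other by 1.71 to 2.30. Shh 3 lay at 2.79 to 4.73 from the vehicle libraries and Shh 1 at only 2.20 to 2.67. The Shh libraries differed from each other by 4.07 to 9.11.

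Promoter sequences from RefSeq (GRCm38.p6), which run from 250 bases before to 50 bases after the start site, were found for 7 of the 9 genes. They are shown for *B2m*, *H2-D1* and *H2-K1* because these encode the chains of the class I molecule and because both heavy chain genes differed widely in level, as described further on. Each stretch ends before the start site and is printed on the strand of the gene (chr2:122147540-122147648, plus strand, chr17:35262913-35263032, plus strand, and chr17:34000349-34000468, minus strand). Capitals mark, in *B2m*, the interferon-stimulated response element core TTTCNNTT on the opposite strand and then a κB consensus, and in the heavy chain genes the κB consensus and then the core. The last pair of capital runs in each is TGACG and ATTGG, the X2 and Y boxes of the SXY module.
B2m: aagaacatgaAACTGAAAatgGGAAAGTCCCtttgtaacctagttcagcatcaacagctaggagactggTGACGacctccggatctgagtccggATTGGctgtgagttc
H2-D1: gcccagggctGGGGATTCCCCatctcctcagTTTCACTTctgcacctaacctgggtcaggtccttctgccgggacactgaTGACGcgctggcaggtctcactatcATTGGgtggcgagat
H2-K1: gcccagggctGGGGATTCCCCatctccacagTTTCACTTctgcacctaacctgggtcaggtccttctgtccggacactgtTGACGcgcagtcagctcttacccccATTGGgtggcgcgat

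The distance between the X2 and Y boxes was 20 bases in all 3 promoters. TGACG followed after 18 to 22 bases by ATTGG, on either strand, was present in 88 of 32841 promoter windows (0.268%), and among the 7 genes with a window it was found in these 3. The single motifs were common. On either strand, the κB consensus was in 8.46% of windows, TTTCNNTT in 23.9% and TGACG in 20.8%. CCAAT, the reverse complement of ATTGG, was in 37.4%, and the capitals of different motifs do not overlap in the stretches shown. TTTCNNTT was also found in the windows of *Erap1* and *Cd274* and not in those of *Tap1* and *Tapbp*. The window of *Tap1* shares 275 of its 300 bases with that of *Psmb9*, an immunoproteasome subunit gene on the opposite strand. The *H2-D1* and *H2-K1* windows, for the *H2-K1* start used here, were identical in 217 of 242 aligned positions (89.7%), with a longest identical run of 47 bases.

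Levels per transcript length spanned a wide range, and the chains of the class I molecule came first. FPKM divides a count by the length of the transcript and by the library total, so that genes can be set side by side. *B2m* had FPKM of 969, 884 and 903 in Shh 1, 2 and 3, against 983, 952 and 1015 in vehicle 1, 2 and 3, which placed it at rank 100 of 18169 genes. *H2-D1* had 288, 259 and 276 FPKM with Shh, against 291, 295 and 273 FPKM with vehicle (rank 324). Both lay far above the other genes in every library.

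The genes *Tapbp*, *Tap1* and *Erap1*, of loading, transport and trimming, came next, at ranks 5210, 5749 and 6684 of 18169 genes. *Tapbp* averaged 13.8 ± 0.51 FPKM with Shh and 13.1 ± 0.82 FPKM with vehicle (SD, n = 3 each). *Tap1* averaged 11.2 ± 0.75 and 11.1 ± 0.59 FPKM, and *Erap1* 8.57 ± 0.29 and 7.80 ± 0.45 FPKM, with Shh and with vehicle. *Tap1* exceeded *Tap2*, the gene of the other chain of the peptide transporter, by 3.29 to 4.18 times across the 6 libraries.

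*H2-K1*, *Cd274*, *Nlrc5* and *Tap2* were the lowest of the 9 genes, at ranks 8125, 8372, 8537 and 8952 of 18169 genes. *H2-K1* averaged 4.75 ± 1.27 FPKM with Shh and 4.54 ± 0.33 FPKM with vehicle, *Cd274* 4.06 ± 0.30 and 4.17 ± 0.21 FPKM, *Nlrc5* 3.85 ± 0.17 and 3.74 ± 0.22 FPKM, and *Tap2* 3.22 ± 0.20 and 2.92 ± 0.23 FPKM. In the order of mean levels (*B2m*, *H2-D1*, *Tapbp*, *Tap1*, *Erap1*, *H2-K1*, *Cd274*, *Nlrc5*, *Tap2*) neighbours did not overlap over the 6 libraries, except *H2-K1* with *Cd274* and *Cd274* with *Nlrc5*. The order of close genes depends on the transcript models. The lengths behind the deposited FPKM were 3932, 2177 and 2442 bases for *Erap1*, *H2-K1* and *Tap2*. Their longest coding transcripts in GENCODE M21 have 5644, 1619 and 3442 bases.

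**Figure D1:**
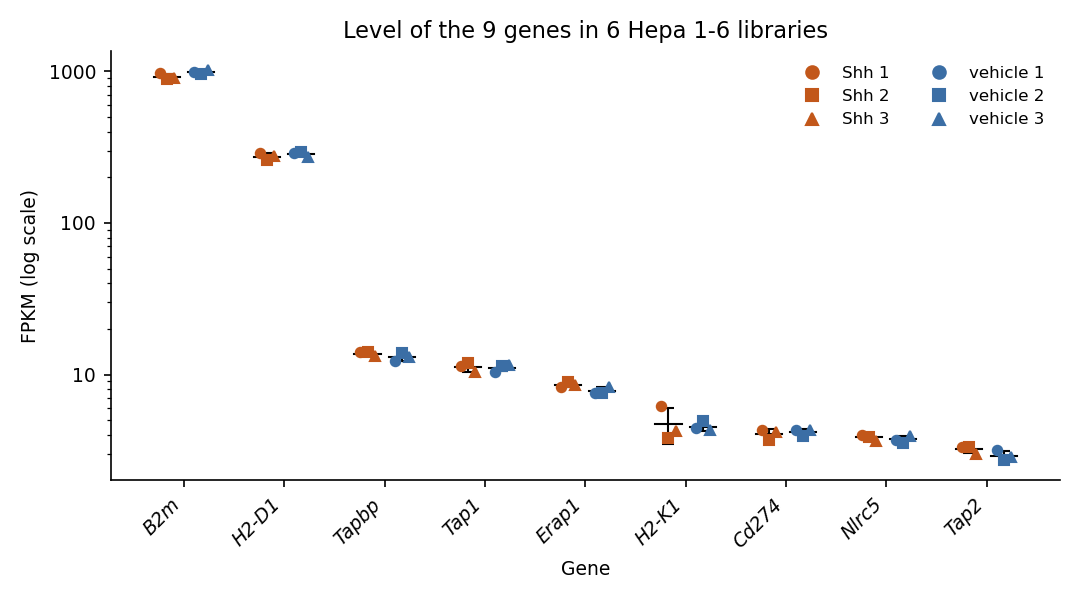
FPKM on a log axis for the 9 genes in 3 Shh libraries (orange) and 3 vehicle libraries (blue), with the library number by symbol and black lines for the mean and SD. *B2m* and *H2-D1* lie far above the others, and in FPKM the groups overlap for every gene.

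The heavy chain genes were very unequal. *H2-D1* exceeded *H2-K1* by 46.5, 68.0 and 65.0 times in FPKM in Shh 1, 2 and 3, against 65.9, 60.0 and 63.6 times in vehicle 1, 2 and 3. Over the 20 H2 class I heavy chain genes in the table, *H2-D1* held 69.6 to 71.3% of the summed FPKM and *H2-K1* 1.03 to 1.52%. *B2m* had 2.29 to 2.59 times the summed FPKM of these heavy chains.

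Of the other 18 heavy chain genes, 9 passed the filter and 6 had a higher mean FPKM than *H2-K1*. *H2-T22* and *H2-T23*, nonclassical class I genes, had 27.3 ± 0.64 and 25.8 ± 1.66 FPKM with Shh and 28.0 ± 1.00 and 29.1 ± 1.21 FPKM with vehicle. These genes share sequence, and the reads had 50 bases. In GENCODE M21 transcripts, 8.79% of the 50-base windows of *H2-K1* and 14.3% of those of *H2-D1* also occurred in other genes, against 44.7% for *H2-T22* and 28.8% for *H2-T23*. Counts of the 2 *H2-T* genes are therefore uncertain. That of *H2-K1* is exposed too, since 6.94% of its windows also occur in *H2-D1*, which had far more counts. How many *H2-D1* reads entered the *H2-K1* count was not tested, and the ratio of these genes carries the same limit. No window shared with another gene was found for *B2m*, *Erap1* or *Nlrc5*. The transcript length behind the deposited FPKM was 2177 bases for *H2-K1* and 1687 bases for *H2-D1*, while the longest coding transcripts in GENCODE M21 have 1619 and 2102 bases, so the ratio depends on the transcript models. In estimated counts, which no length enters, *H2-D1* exceeded *H2-K1* by 37.1, 51.6 and 50.5 times in Shh 1, 2 and 3, against 50.3, 50.2 and 49.1 times in vehicle 1, 2 and 3. The estimated counts were whole in every library for *B2m* and *Nlrc5* and not for the other 7 genes.

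**Figure D2:**
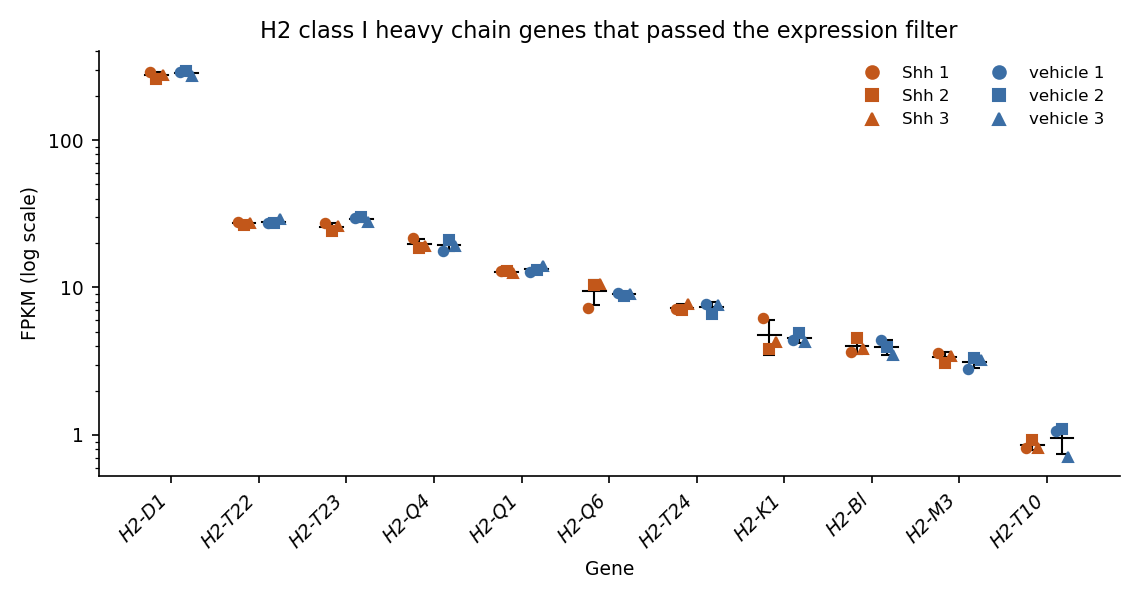
FPKM on a log axis for the 11 H2 class I heavy chain genes that passed the expression filter, in 3 Shh (orange) and 3 vehicle (blue) libraries, with black lines for the mean and SD. *H2-D1* lies above all others, and *H2-K1* is in the lower part, with Shh 1 above the other libraries.

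With Shh, none of the 9 genes changed past the threshold. By edgeR's quasi-likelihood test with Benjamini-Hochberg adjustment over 12286 genes, 0 of the 9 genes had an adjusted p below 0.05, where the share over all genes was 0%. DESeq2 also called 0. At an unadjusted p below 0.05, *Erap1* was higher and *B2m* was lower, 2 of 9 genes, where 10.4% of all genes met that p. The log2 fold changes of all 9 genes were within 0.2 of 0, 5 above and 4 below, with a median of 0.023, and the median over all genes tested was 0.0028. The 95% intervals, which cover 1 gene each, left room for folds between 0.84 and 1.29, both limits being those of *H2-K1*.

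*Erap1*, the aminopeptidase that trims peptides in the endoplasmic reticulum, had 34.0, 35.2 and 33.3 CPM in Shh 1, 2 and 3, against 29.5, 30.1 and 32.7 CPM in vehicle 1, 2 and 3. CPM scales each count to the normalised library total. The lowest Shh value exceeded the highest vehicle value, which among the 9 genes was seen for *Erap1* alone. Over all genes, 15.5% had groups that did not overlap in CPM, 6.79% with Shh higher and 8.69% with Shh lower. In FPKM the groups of *Erap1* touched, with 8.31 in Shh 1 and 8.32 in vehicle 3. Its log2 fold change was 0.15 (SE 0.058, adjusted p = 0.469 by edgeR), or 1.11-fold with an interval of 1.02 to 1.21. *Erap1* overlaps *Cast* in RefSeq, *B2m* overlaps *Patl2*, and *Tapbp*, *Nlrc5* and *Cd274* also overlap other entries. No source used here states whether reads were counted by strand.

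*B2m* had 788, 698 and 727 CPM in Shh 1, 2 and 3, against 805, 778 and 826 CPM in vehicle 1, 2 and 3. Shh 1 lay within the vehicle range and the other Shh libraries below it. Its log2 fold change was -0.12 (SE 0.048, adjusted p = 0.469 by edgeR), or 0.92-fold with an interval of 0.85 to 0.99. Without Shh 1 it was -0.17 with an adjusted p of 0.0583, the lowest adjusted p of any of the 9 genes under any alternative (for *B2m*, adjusted p ran from 0.0583 to 0.907).

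The value of *B2m* moved with transcript length. Over 11471 genes the log2 fold change correlated with the length behind the FPKM (Spearman's rho 0.54 across genes, which are not independent replicates and share the same 6 libraries), and *B2m*, at 809 bases, is short against a median of 2690 bases. With a trend for length fitted in each library, the log2 fold change of *B2m* was -0.026 and that of *Erap1*, at 3932 bases, was 0.11. What length carries in these libraries was not tested.

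*H2-D1*, the abundant heavy chain, had 487, 426 and 463 CPM with Shh, against 498, 502 and 463 CPM with vehicle. The lowest value was again that of Shh 2, and the groups overlapped. Its log2 fold change was -0.088 (SE 0.053, adjusted p = 0.553 by edgeR), and -0.051 with the length trend. Without Shh 2 it was -0.038 and without Shh 1 it was -0.13.

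*H2-K1* had 265, 171 and 187 estimated counts in Shh 1, 2 and 3, against 198, 201 and 191 in vehicle 1, 2 and 3. Shh 1 stood above all other libraries, at 1.34 times the vehicle mean in CPM, and Shh 2 and Shh 3 were below every vehicle library. The log2 fold change was 0.058 (SE 0.143, adjusted p = 0.904 by edgeR) and took the opposite sign without Shh 1, -0.17 (adjusted p = 0.350).

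Among the 9 genes, 4 had their highest CPM in Shh 1, namely *H2-K1*, *Tap2*, *Tapbp* and *Nlrc5*. Of 8 class II genes, which antigen-presenting cells express, 7 also had their highest CPM in Shh 1, the exception being *H2-DMa* (7.19 CPM there, 6.91 to 7.83 CPM elsewhere). *Cd74*, the invariant chain, had 360, 102 and 101 counts in Shh 1, 2 and 3, against 95, 159 and 115 in vehicle 1, 2 and 3. *H2-Aa* had 68, 12 and 13 counts with Shh, against 15, 26 and 17 with vehicle. Vehicle 2 was the next highest library for both genes, and *Ciita*, the class II transactivator, had at most 8.23 counts in any library.

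Of the markers of other cells, 6 of 7 leukocyte and 4 of 5 stellate and fibroblast genes had their highest CPM in Shh 1. So did 3 of 5 endothelial genes, against 3 of 10 hepatocyte genes. Some of these rest on very few counts. *Tek* had 4 counts in Shh 1 and 4 in vehicle 3, and *Lrat* had 1.06 in Shh 1 and 0.98 in vehicle 2. The share of all genes that were highest in Shh 1 was not counted. *Ptprc*, the pan-leukocyte gene, had 28 counts in Shh 1 and 3 to 8 elsewhere. *Col1a1*, a collagen of fibroblasts, had 440 counts in Shh 1 and 151 to 318 elsewhere. *Cd68*, a macrophage gene, had 310 counts in Shh 1 and 238 to 290 elsewhere. *Dcn*, the most abundant of the stellate and fibroblast markers, was lowest in Shh 1, at 902 CPM, with 908 to 979 CPM elsewhere. The part of these cells in the *H2-K1* value was not tested, and in bulk RNA a different share of cells and a different RNA content per cell cannot be told apart. For *B2m* and *H2-D1*, Shh 1 was at 0.98 and 1.00 times the vehicle mean.

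**Figure D3:**
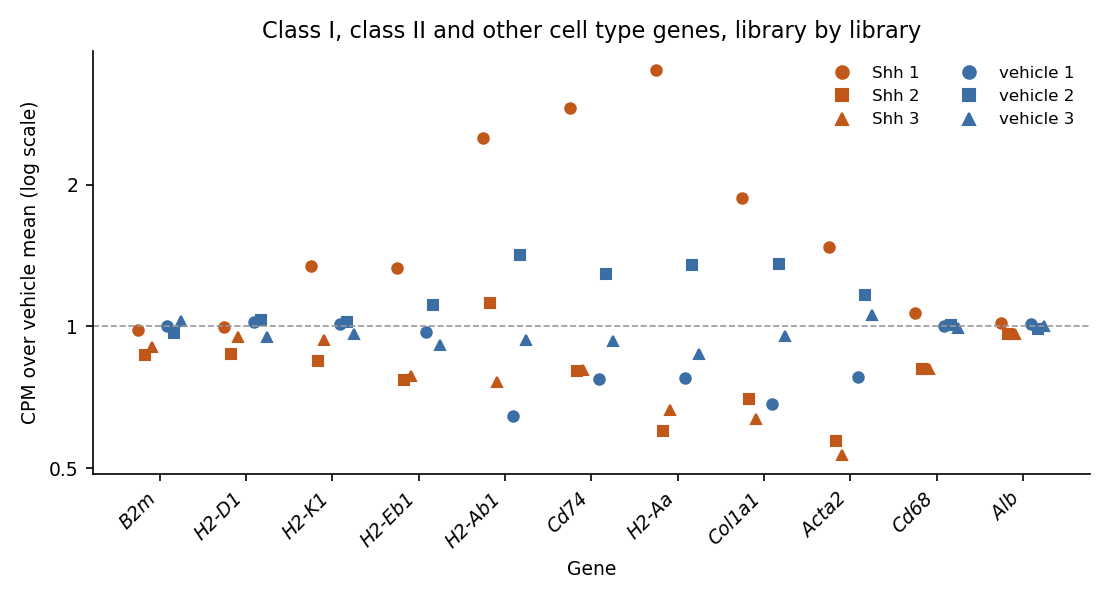
CPM of each library over the mean of the vehicle libraries, on a log axis, for *B2m*, *H2-D1*, *H2-K1*, class II genes and markers of other cells, with Shh in orange and vehicle in blue. Shh 1 (orange circle) is at 1.34 for *H2-K1*, 2.91 for *Cd74* and 3.50 for *H2-Aa*, and near 1 for *B2m*, *H2-D1* and *Alb*.

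The transporter and tapasin genes showed small differences that did not pass the test. *Tap1* had 32.9, 33.6 and 30.0 CPM with Shh, against 30.7, 33.5 and 33.5 CPM with vehicle (log2 fold change -0.018, SE 0.062, adjusted p = 0.932 by edgeR). *Tap2* had 8.21, 7.91 and 7.27 CPM with Shh, against 7.86, 6.77 and 6.99 CPM with vehicle (0.12, SE 0.101, adjusted p = 0.687). *Tapbp* had 37.9, 37.2 and 35.4 CPM with Shh, against 33.4, 37.8 and 35.5 CPM with vehicle (0.051, SE 0.058, adjusted p = 0.766). The groups overlapped for all 3 genes, and the sign for *Tap1* turned when Shh 3, vehicle 2 or vehicle 3 was left out. Without vehicle 1, *Tapbp* was at 0.0074, and *Tap2* ran from 0.073 to 0.18 with a library left out.

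*Nlrc5*, the transactivator, had 600, 586 and 553 counts in Shh 1, 2 and 3, against 560, 534 and 590 in vehicle 1, 2 and 3. The highest value came from a Shh library and the lowest from a vehicle library, with the other libraries mixed between them. Its log2 fold change was 0.023 (SE 0.060, adjusted p = 0.910 by edgeR) and -0.055 with the length trend, *Nlrc5* being the longest of the 9 transcripts at 7415 bases. Its interval was 0.93 to 1.11-fold.

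*Cd274*, the gene of PD-L1, had 315, 272 and 306 counts in Shh 1, 2 and 3, against 317, 286 and 314 in vehicle 1, 2 and 3. The groups overlapped and the lowest count was that of Shh 2. Its log2 fold change was -0.062 (SE 0.081, adjusted p = 0.803 by edgeR), an interval of 0.85 to 1.08-fold. *Pdcd1lg2*, the gene of the second PD-1 ligand, PD-L2, had a higher level than *Cd274*, by 4.14 ± 0.40 times in FPKM with Shh and 4.07 ± 0.29 times with vehicle (SD, n = 3 each).

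**Figure D4:**
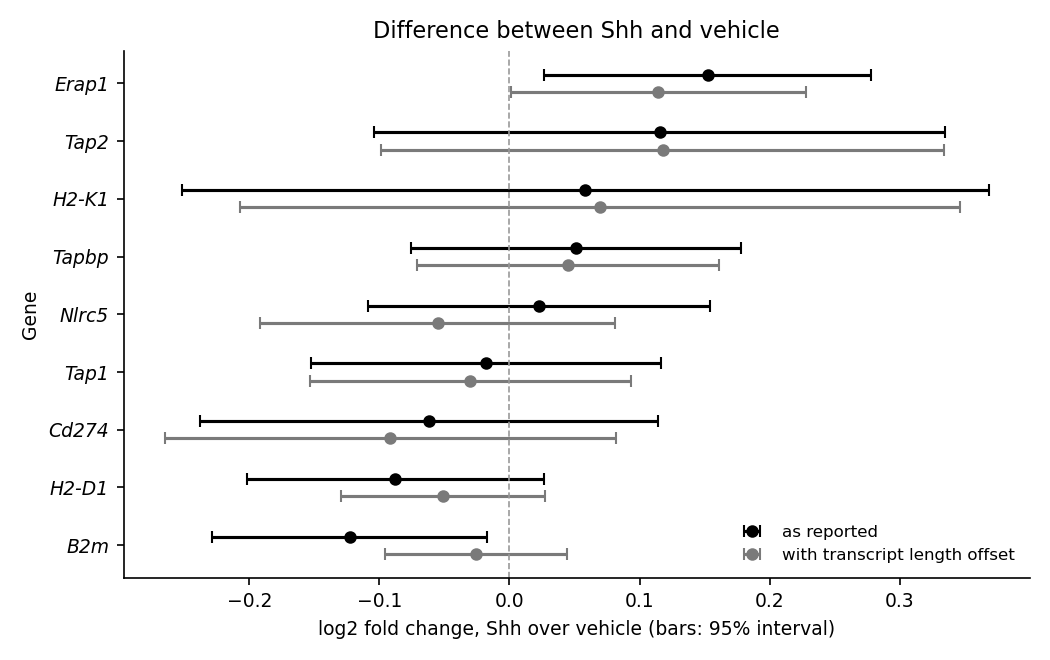
Log2 fold change, Shh over vehicle, with 95% intervals for the 9 genes, as reported (black) and with a trend for transcript length fitted in each library (grey). All intervals but those of *Erap1* and *B2m* include 0 as reported, and with the length trend *B2m* lies at -0.026.

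The wider class I pathway was followed in 8 lists, of which 91 genes were tested. Of these, 0 had an adjusted p below 0.05 by edgeR, and 2 were higher and 6 lower at an unadjusted p below 0.05, where 4.83% of all genes were higher and 5.56% lower. At that p, 0 were higher and 2 lower of 89 genes with the length trend, and 8 were higher and 10 lower of 91 without Shh 1. Over all genes and in either direction, 697 of 11471 met that p with the length trend, and 2610 of 12391 without Shh 1. The proteasome list leaned to one side. It holds the catalytic subunits, their immunoproteasome counterparts and the PA28 activator, and all 9 genes were below 0, 4 of them at an unadjusted p below 0.05, with a median log2 fold change of -0.13 that was -0.038 with the length trend, where 0 of the 9 met that p. *Psmb10*, an immunoproteasome subunit, had 25.3 ± 0.52 FPKM with Shh and 28.0 ± 0.53 FPKM with vehicle (log2 fold change -0.17, adjusted p = 0.469), and the constitutive subunits *Psmb5* and *Psmb6* had -0.12 and -0.13.

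The constitutive subunits were far more abundant than the immunoproteasome subunits that replace them. *Psmb5* exceeded *Psmb8* by 14.4 to 15.8 times in FPKM, *Psmb6* exceeded *Psmb9* by 77.8 to 113 times and *Psmb7* exceeded *Psmb10* by 10.4 to 11.9 times. The ranges of Shh and vehicle overlapped for all 3 ratios.

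Of 14 tested heavy chain relatives, 5 were above and 9 below 0, and *H2-T23* had the smallest p (log2 fold change -0.20, adjusted p = 0.469 by edgeR, groups not overlapping). Of 10 chaperones of class I loading, 3 were above and 7 below 0, with *Canx* (calnexin) at 0.11, *Calr* (calreticulin) at -0.060 and *Erp29* at -0.068. Of 8 peptidases outside this set, 5 were above and 3 below 0, with *Lnpep*, an endosomal trimming aminopeptidase, at 0.16 (unadjusted p = 0.0268), *Tpp2* at 0.11, *Ide* at 0.065 and *Prep* at 0.017. None of these passed the adjusted threshold.

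Among 22 regulators of class I genes and interferon-γ signalling, 15 were above and 7 below 0. *Suz12*, a subunit of the repressive complex PRC2, was at 0.16 (unadjusted p = 0.0351), the kinase gene *Jak1* at 0.093, *Rfxank*, a subunit of the RFX factor that binds the X box, at -0.14, and *Rela*, an NF-κB subunit, at -0.0048. Of 11 checkpoint genes 4 were above and 7 below 0, with *Lgals9* (galectin-9) at -0.066, *Cmtm6*, which stabilises PD-L1, at 0.070 and *Cd47* at -0.070. Of 11 interferon response genes 5 were above and 6 below 0, with *Ifi35* at -0.14 (unadjusted p = 0.0444), *Usp18* at -0.11 and *Bst2* (tetherin) at -0.11. The adjusted p of each was above 0.05.

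The class II list had the largest median of the 8 lists, 0.48 over 6 tested genes, 4 above and 2 below 0, and it rested on Shh 1. Its summed level was 41.1, 19.0 and 19.6 CPM in Shh 1, 2 and 3, against 19.8, 26.3 and 20.8 CPM in vehicle 1, 2 and 3. *Cd74* was at 0.59 and *H2-Aa* at 0.66, and without Shh 1 they were at -0.31 and -0.66. *H2-Eb1* and *H2-DMa* were at -0.059 and -0.0042.

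**Figure D5:**
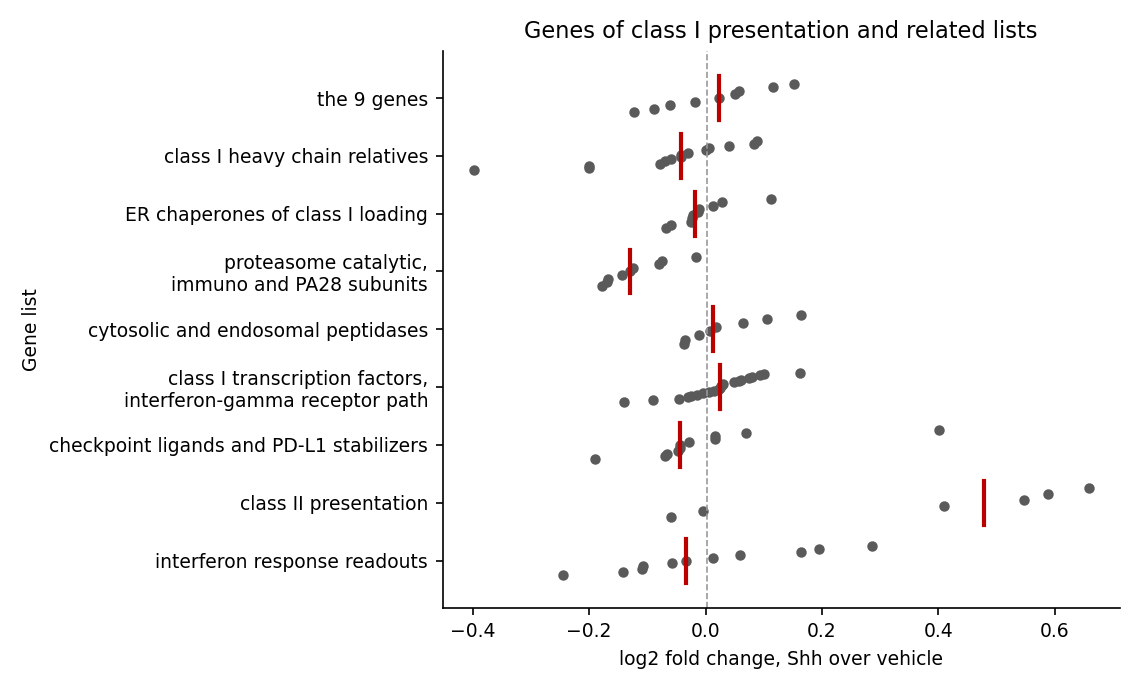
Log2 fold change, Shh over vehicle, of each tested gene (grey points) of the 9 genes and of 8 lists of related genes, with a red line at each list's median and a dashed line at the median of all genes tested. The proteasome genes all lie below 0 and the class II median is 0.48.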

How the data were processed

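Poly(A) RNA of Hepa 1-6 cells given Shh or vehicle was sequenced (3 libraries each). The gene table deposited by the authors holds estimated counts, 36.1 to 36.9% of them not whole among the values above 0 in a library, and FPKM, in which the authors divided counts by transcript length and library total. Another 6 per-sample columns were not used. Bowtie2 is named in the submitters' notes with no version. The build, annotation and counting tool were not given in the sources used here. In its design text the series mentions exosomes of the liver, but the sample labels name the cell line, which was followed.

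Rounded counts were tested in R 4.3.3 with the quasi-likelihood test of edgeR 4.0.16, with group as the only term, TMM factors and the expression filter (minimum count 10, minimum total 15). Benjamini-Hochberg adjustment ran over all genes at 0.05. FPKM served for levels and, at 0.5 or more, to recover transcript lengths. The other settings were DESeq2 1.42.0, a different scaling (upper quartile), no filter or at least 5 CPM in 3 libraries, a replicate block, a length trend (5 degrees of freedom per library), block and trend together, each library left out, and summed heavy chains. The length trend without Shh replicate 1 was chosen after seeing the data. The test was checked on simulated counts, where it recovered 48.5% of 200 genes changed 1.2-fold and 84.5% of 200 genes changed 1.5-fold. Those simulated counts held no length trend and no library that stood apart. Library totals were nearly equal, and each gene's count and its spread between libraries limited the precision.

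All 9 genes were named, and of each list up to 3 genes with the smallest p among those with a mean of at least 5 CPM, and the gene with the highest level per length. Other genes were named after their values were seen. The genes, the lists and the tests were chosen with earlier results of these data known. The values of 1 listed gene are not reported here.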

Additional observations from a re-analysis of the deposited data

How the results depend on the processing

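None of the 9 genes passed the adjusted threshold under any of 128 alternative fits over these genes, of which 116 kept the direction and 12 turned it. The summed heavy chains, a pooled row and not a fit of either gene alone, were counted for both *H2-K1* and *H2-D1*. They entered as a turn for *H2-K1* and as kept for *H2-D1*. *B2m*, *H2-D1*, *Tap2*, *Tapbp* and *Erap1* kept their direction in all of their fits. With libraries left out one at a time, their log2 fold changes ran from -0.17 to -0.085, from -0.13 to -0.038, from 0.073 to 0.18, from 0.0074 to 0.096 and from 0.12 to 0.20, in that order of genes. For the genes that turned, it ran from -0.17 to 0.19 for *H2-K1*, from -0.059 to 0.029 for *Tap1*, from -0.012 to 0.057 for *Nlrc5* and from -0.11 to 0.0094 for *Cd274*. That of *Nlrc5* was -0.055 with the length trend, -0.055 with the replicate block added and -0.12 with the length trend without Shh replicate 1. That of *H2-K1* was -0.14 in the last of these fits, and -0.076 for the summed heavy chains. The cause of these turns was not tested.

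Over all genes, the number past the threshold was 0 as reported, 1 without the filter, 1 with the length trend, 5 with block and trend, 10 with the trend without Shh replicate 1, and 0 to 195 when a library was left out. The 195 came without Shh replicate 1, and none of the 9 genes or of the 91 genes of the other lists was called in any of these fits. Same-numbered libraries did not deviate together (r of -0.040, -0.054 and 0.098 across genes), so the numbers were not taken as pairs, and the replicate block called 0 genes.

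Among the other named genes, the length trend gave 0.00012 for *Erp29*, 0.0096 for *Psmb7* and -0.018 for *Prep*. With the replicate block added, *Psmb7* was at 0.0085 and *Prep* at -0.018, and with the trend but without Shh replicate 1, *Psmb7* was at 0.033, *Prep* at -0.037, *Rela* at 0.0089, *Cd74* at -0.20 and *H2-Aa* at -0.54. With at least 5 CPM in 3 libraries, *H2-DMa* was at 4.2e-05. With libraries left out one at a time, the range was -0.035 to 0.019 for *Rela*, -0.31 to 0.89 for *Cd74*, -0.36 to 0.078 for *H2-Eb1*, -0.034 to 0.054 for *H2-DMa* and -0.66 to 1.05 for *H2-Aa*. *Tap2* and *H2-K1*, with 136 to 265 counts per library, had the widest intervals of the 9 genes.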
